A study of Mus musculus with 6 samples.

Results

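Slc35d3, Spon1, Btbd17 and Calcr were the 4 genes whose RNA rose most between mouse embryonic stem cells (ESCs) and epiblast-like cells (EpiLCs) among well-expressed genes, out of 24736 genes measured and 14468 with enough reads to be tested. They were chosen on the change described here. Ranked by log2 fold change among the 2189 genes that were higher in EpiLCs and had a mean of at least 10 CPM (counts scaled to library size) over all libraries, they took ranks 1 to 4 (6.35, 6.07, 5.47 and 4.94). Their rise is therefore given as a description, without a test. Just outside the choice, the next gene by rank was the long noncoding RNA Miat (4.62).

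All cells were wild-type male (XY) cells of the HM1 TetON line, which carries the rtTA transactivator at Rosa26 for inducible transgenes that were not used here. ESCs were grown over feeders, with 10% serum and LIF at 1000 U/ml, the cytokine that holds them undifferentiated, and were collected at 0 h. EpiLCs were collected at 48 h, after culture in serum-free N2/B27 medium to which bFGF (10 ng/ml) had been added together with LGK974 (5 µM), a drug that blocks the secretion of WNT proteins. The labels give 48 h, whereas the general culture description gives a longer period for EpiLCs. There were 3 biological replicates of each, all from the same line, and the groups differ in medium, feeders and time together, so that these cannot be told apart.

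ESCs resemble the epiblast before implantation, and EpiLCs resemble the epiblast shortly after it, when naive factors have been switched off and the cells become able to respond to signals that form the germ layers. None of the 4 genes is among the commonly used markers of that step. Slc35d3 encodes an orphan member of the nucleotide sugar transporter family that is needed for platelet dense granules. Spon1 encodes F-spondin, a secreted matrix protein of the floor plate that guides axons and binds the amyloid precursor protein and an apolipoprotein E receptor. Btbd17 encodes a little-studied protein with a BTB domain that is related to the secreted galectin-3-binding protein, and Calcr encodes the calcitonin receptor, a class B G protein-coupled receptor known for restraining osteoclasts and keeping muscle satellite cells quiescent.

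Genes that mark the groups followed the labels. Nanog lay at 290 to 372 TPM (a level scaled for transcript length and library) in ESCs and 5.95 to 22.5 in EpiLCs, Pou5f1 at 1237 to 1418 and 1355 to 1574, Fgf5 at 25.5 to 38.0 and 82.7 to 94.5, and Otx2 at 29.1 to 57.8 and 172 to 178. Totals lay between 16967741 and 35096210 expected counts. Some libraries stood apart in marker RNA. ESC replicate 2 had the most RNA of fibroblast markers, with a summed level of 1739 TPM against 443 and 185 in the other ESC libraries and 124 to 136 in EpiLCs, and feeder cells are fibroblasts. The culture methods describe plating steps that remove feeders before differentiation, and do not say whether the 0 h cells went through them. Primitive streak markers summed to 568, 233 and 190 TPM in ESC replicates 1, 2 and 3, with T at 180, 73.0 and 40.0 TPM, and to 11.4, 11.0 and 72.1 TPM in EpiLC replicates, with T at 0.870, 0.690 and 30.7 TPM. Of the 11 markers, all tested, 8 (72.7%) were lower in EpiLCs, against 22.8% of all tested genes. Without ESC replicate 2 the log2 fold changes of Slc35d3, Spon1, Btbd17 and Calcr were 6.02, 5.79, 5.65 and 4.93.

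The start sites are shown first, because 3 of the genes have a RefSeq promoter sequence (GRCm38.p6) and the stretches differ in base composition. Each line gives the 250 bases before a RefSeq start, 5′ to 3′ on the strand of the gene, and capitals mark CCAAT boxes (CCAAT) and GC boxes (GGGCGG, or CCGCCC on the opposite strand). All 4 stretches lie on the minus strand, Slc35d3 at chr10:19851460-19851709, Btbd17 at chr11:114795893-114796142, and the alternative starts of Calcr at chr6:3763624-3763873 (inner) and chr6:3764714-3764963 (outer). The gene spans given further on are from GENCODE. For Btbd17 the GENCODE transcript used here begins at 114795945, upstream of the RefSeq start of the printed stretch. The end of the Btbd17 stretch therefore lies inside the GENCODE span, as does the last base of the outer Calcr stretch. The RefSeq gene spans, used below for distances, reach further upstream, to 19856634 for Slc35d3 and 114801916 for Btbd17. Both stretches lie wholly inside those RefSeq spans, and sequence before any start farther out is not printed. No sequence of Spon1 is printed.
Slc35d3: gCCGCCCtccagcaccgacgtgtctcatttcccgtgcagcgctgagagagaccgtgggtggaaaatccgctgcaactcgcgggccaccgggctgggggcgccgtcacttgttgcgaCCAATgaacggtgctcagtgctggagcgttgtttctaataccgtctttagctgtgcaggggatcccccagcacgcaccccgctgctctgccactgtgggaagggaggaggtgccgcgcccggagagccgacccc
Btbd17: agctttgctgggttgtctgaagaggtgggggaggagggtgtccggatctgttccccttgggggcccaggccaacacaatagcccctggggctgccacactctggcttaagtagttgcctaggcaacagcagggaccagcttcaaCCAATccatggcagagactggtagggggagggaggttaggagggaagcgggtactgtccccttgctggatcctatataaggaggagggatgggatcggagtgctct
Calcr inner start: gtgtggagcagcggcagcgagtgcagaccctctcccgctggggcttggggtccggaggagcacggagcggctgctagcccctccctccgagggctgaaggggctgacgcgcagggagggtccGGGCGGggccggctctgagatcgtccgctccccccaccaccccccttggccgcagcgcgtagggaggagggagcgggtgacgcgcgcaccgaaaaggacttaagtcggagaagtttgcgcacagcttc
Calcr outer start: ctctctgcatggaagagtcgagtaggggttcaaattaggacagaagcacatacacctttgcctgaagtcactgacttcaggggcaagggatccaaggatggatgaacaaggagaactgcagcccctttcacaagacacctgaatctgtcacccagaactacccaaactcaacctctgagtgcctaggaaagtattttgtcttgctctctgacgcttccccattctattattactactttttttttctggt

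The Slc35d3 stretch had a GC content of 65.6% and that before the inner start of Calcr 70.8%, above the median of 52.4% over 32851 promoters. Their ratios of observed to expected CpG were 0.818 and 0.775 against a median of 0.373. Btbd17 and the outer start of Calcr were poor in CpG, with ratios of 0.148 and 0.153. A CCAAT box lay 134 bases before the RefSeq start used for Slc35d3. Another lay 106 bases before that used for Btbd17, still upstream of the GENCODE start, and 33.8% of all promoters held such letters on either strand. GC boxes lay 249 bases before the start used for Slc35d3, on the opposite strand, and 128 bases before the inner start of Calcr. Of all promoters, 32.7% held them. The letters TATAAA, ATGCAAAT (octamer), CATTGT (SOX core), CTTTGA (TCF/LEF core), GGATTA (OTX core) and CACGTG (E-box) were not found on either strand in any of the 4 stretches, against 12.4%, 1.60%, 10.7%, 13.8%, 6.25% and 6.02% of all promoters. These matches describe exact letters only, and CCAAT and GC boxes did not overlap each other here. Close variants, such as tatataa near the end of the Btbd17 stretch, were not counted.

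In each of the 4 genes, every EpiLC library lay far above every ESC library. Of all tested genes, 30.3% had every EpiLC library above every ESC library and 29.0% every one below. At an adjusted p of at most 0.05, 22.6% of tested genes were called higher and 22.8% lower, 8.78% and 11.5% with a log2 fold change above 1 or below -1. As the 4 genes were picked for this contrast, nothing is read from their count against these shares. Expected counts of the 4 genes were exactly whole as deposited in 6 of 6 libraries, whereas 4.27% to 4.65% of all values per library were not. In bulk RNA, a smaller share of cells with a transcript and less of it in each cell cannot be told apart.

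Slc35d3 had the largest rise of the 4. It lies at chr10:19847916-19851459 on the minus strand, with 2 exons and a coding sequence of 422 codons. The ESC libraries held 11, 2 and 15 expected counts in replicates 1, 2 and 3, or 0.410, 0.10 and 0.430 TPM. In EpiLCs the counts were 1333, 1362 and 791, or 31.0, 33.0 and 21.0 TPM. ESC replicate 2 was lowest among ESCs, and its 2 counts lay under the detection floor of 3 counts. Its 95% counting interval (0.0121 to 0.361 TPM) overlapped those of the others. EpiLC replicate 3 was low beyond counting error, as its interval (19.6 to 22.5 TPM) did not reach those of replicates 1 and 2 (29.4 to 32.7 and 31.3 to 34.8). The ESC mean was 0.313 ± 0.185 TPM and the EpiLC mean 28.4 ± 6.44 TPM (SD, n = 3 each). The log2 fold change was 6.35 (SE 0.37), an 81.6-fold rise, and even the lowest EpiLC library exceeded the highest ESC library 48.9-fold in TPM. Platelet genes were mostly at or near 0. Of 12 markers of platelets and megakaryocytes, 4 were tested, with 1 higher (Nfe2, log2 fold change 2.33) and 2 lower (Ppbp, -8.84, and Vwf, -4.41), which is 25% and 50% against 22.6% and 22.8% of all tested genes. Pf4, Gp6 and Treml1 were listed at 0 in all 6 libraries, and the summed level was 5.55 to 8.97 TPM in ESCs and 1.59 to 3.41 TPM in EpiLCs.

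Spon1, second by rank, had the lowest ESC mean in TPM, although not in CPM (0.638, against 0.387 for Slc35d3), and the ESC ranges of both genes overlapped. It spans chr7:113765998-114043370 on the plus strand, with 16 exons and 807 codons. ESC replicates 1, 2 and 3 held 11, 5 and 31 expected counts, or 0.170, 0.10 and 0.370 TPM, and EpiLC replicates held 1658, 1371 and 1642, or 16.2, 13.9 and 18.3 TPM. Among ESCs, replicate 3 exceeded replicate 2 by more than counting error (intervals 0.251 to 0.525 and 0.0325 to 0.233 TPM). EpiLC replicate 3, lowest for Slc35d3, was highest for Spon1. The ESC mean of 0.213 ± 0.140 TPM and the EpiLC mean of 16.1 ± 2.18 TPM (SD, n = 3 each) went with a log2 fold change of 6.07 (SE 0.35) or 67.2-fold. Without ESC replicate 3 the fold change of Spon1 was 6.80 and exceeded that of Slc35d3 (6.66), so the order of these genes rested on that library. Of 12 floor plate markers 9 were tested, and 1 was higher (Lmx1b, 2.95) and 3 were lower (Ntn1, -4.56, Slit2, -2.75, and Foxa2, -2.31), or 11.1% and 33.3% against 22.6% and 22.8% of all tested genes. Shh, the ligand made by the floor plate, lay at 0.05, 0.10 and 1.23 TPM in EpiLC replicates 1, 2 and 3, and Ferd3l was listed at 0 throughout. The summed level was 133 to 204 TPM in ESCs and 80.0 to 97.2 TPM in EpiLCs. In EpiLCs most of it came from Sulf1 (49.4 to 107 TPM in ESCs and 59.2 to 67.6 TPM in EpiLCs), which like Slit3 (10.5 to 17.9 and 14.6 to 17.9 TPM) did not pass the test.

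Btbd17 lies at chr11:114791217-114795945 on the minus strand, with 3 exons and 478 codons in the transcript used here. It had 14, 13 and 12 expected counts in ESC replicates 1, 2 and 3 (0.600, 0.730 and 0.400 TPM) and 1074, 758 and 867 in EpiLC replicates (29.2, 21.5 and 26.9 TPM). ESC libraries did not differ beyond counting error, whereas the interval of EpiLC replicate 2 ended at 23.1 TPM, below those of replicates 1 and 3 (27.5 to 31.0 and 25.1 to 28.8). The means of 0.577 ± 0.166 TPM and 25.9 ± 3.97 TPM (SD, n = 3 each) gave a log2 fold change of 5.47 (SE 0.25) or 44.3-fold. Neural progenitor markers were mostly near 0. Of 22, 14 were tested, with 2 higher (Dbx2, 2.63, and Six3, 1.72) and 3 lower (En1, -3.21, Nkx6-1, -2.41, and En2, -1.16), or 14.3% and 21.4% against 22.6% and 22.8% of all tested genes, and Sox1 lay at 0.310 to 0.750 TPM in ESCs and 0.390 to 0.860 TPM in EpiLCs. The summed level, to which Nes gave the most, was 37.8 to 67.8 TPM in ESCs and 69.6 to 101 TPM in EpiLCs.

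Calcr had the smallest rise of the 4 and the tightest values. It spans chr6:3685680-3764714 on the minus strand, with 16 exons and 533 codons. ESC replicates 1, 2 and 3 held 25, 20 and 37 counts (0.690, 0.690 and 0.790 TPM), and EpiLC replicates held 1416, 1311 and 1125 (24.4, 23.7 and 22.3 TPM). Neither group had a library that stood out, and counting intervals overlapped within each group. Calcr averaged 0.723 ± 0.0577 TPM among ESCs and 23.5 ± 1.10 TPM among EpiLCs (SD, n = 3 each), and the log2 fold change was 4.94 (SE 0.12) or 30.8-fold. The coefficient of variation in EpiLCs was 4.69%, against 13.5% to 22.7% for the others. The miRNA genes Mir489 and Mir653, which lie within Calcr on the same strand, were listed at 0 in all libraries, which were made from polyadenylated RNA. Osteoclast markers (10, of which 5 were tested) had 2 higher (Acp5, 1.04, and Tnfrsf11a, 0.89) and 1 lower (Mmp9, -3.37), which is 40% and 20% against 22.6% and 22.8% of all tested genes. Ctsk lay at 0.220 to 0.490 TPM in EpiLCs, and the summed level was 9.54 to 17.9 TPM in ESCs and 9.35 to 12 TPM in EpiLCs. Among 9 satellite cell markers, 5 were tested, with 1 higher (Myod1, 3.92, reaching 0.730 TPM) and 2 lower (Vcam1, -3.43, and Notch3, -0.64), or 20% and 40% against 22.6% and 22.8% of all tested genes. Pax7 and Myf5 lay at or below 0.08 TPM in EpiLCs, and the summed level was 31.0 to 35.2 TPM in ESCs and 17.8 to 24.4 TPM in EpiLCs.

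**Figure D1:**
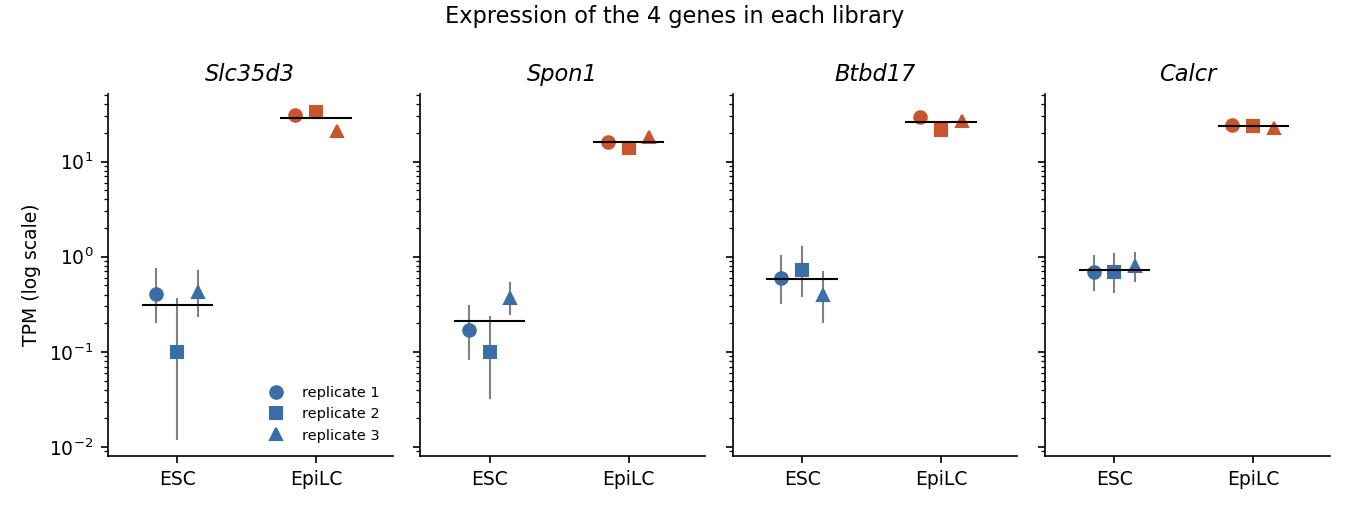
TPM of Slc35d3, Spon1, Btbd17 and Calcr (log axis) in each ESC and EpiLC library, with symbols for replicates, black lines for group means and grey lines for 95% counting intervals. ESC libraries lie between 0.10 and 0.790 TPM and EpiLC libraries between 13.9 and 33.0 TPM, and ESC values of Calcr lie closest together.

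By TPM, which accounts for transcript length, the order of mean levels in ESCs was Calcr, Btbd17, Slc35d3, Spon1, and each neighbouring pair overlapped over libraries and held its order in 2 of 3. In EpiLCs it was Slc35d3, Btbd17, Calcr, Spon1. Only the step from Calcr to Spon1 was free of overlap, with the order kept in 3 of 3 libraries. Compared with all genes in the table, their TPM lay between percentiles 35.5 and 47.4 in ESC libraries and between 69.6 and 81.1 in EpiLC libraries. The gain in TPM was 28.0 TPM for Slc35d3, 25.3 for Btbd17, 22.7 for Calcr and 15.9 for Spon1, and of the 3267 genes called higher in EpiLCs, 513, 568, 651 and 918 gained more TPM than these genes did.

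Summed over libraries and set against summed depth, 28 counts of Slc35d3 in ESCs and 3486 in EpiLCs gave a ratio of 84.4 (95% interval 58.3 to 127). The same ratio was 67.4 for Spon1 (50.6 to 91.8), 46.9 for Btbd17 (34.2 to 66.1) and 31.8 for Calcr (25.6 to 40.1). These intervals cover counting error only, and they overlap between neighbouring genes in this order. Over replicates, the SD of log2 CPM in ESCs was 0.94 for Slc35d3 and 0.84 for Spon1, against 0.39 for Btbd17 and 0.10 for Calcr, and in EpiLCs it was 0.34, 0.21, 0.24 and 0.06.

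Rank depended on the level required. With a mean of at least 1 CPM, Aadat (5.27), Stmn4 (5.15), Far2 (5.11) and Cbln4 (5.10) came above Calcr, which then ranked 8, and with at least 5 CPM it ranked 6. With at least 20 CPM only Spon1 remained of the 4, at rank 1, ahead of Miat. Ranked on a mean of at least 10 TPM, which favours short transcripts, Slc35d3, Btbd17 and Calcr took ranks 1 to 3 and Spon1 was not ranked, as its mean was 8.17 TPM. Over all tested genes of any level, 18 had a log2 fold change at least as large as that of Calcr, the 4 genes included.

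**Figure D2:**
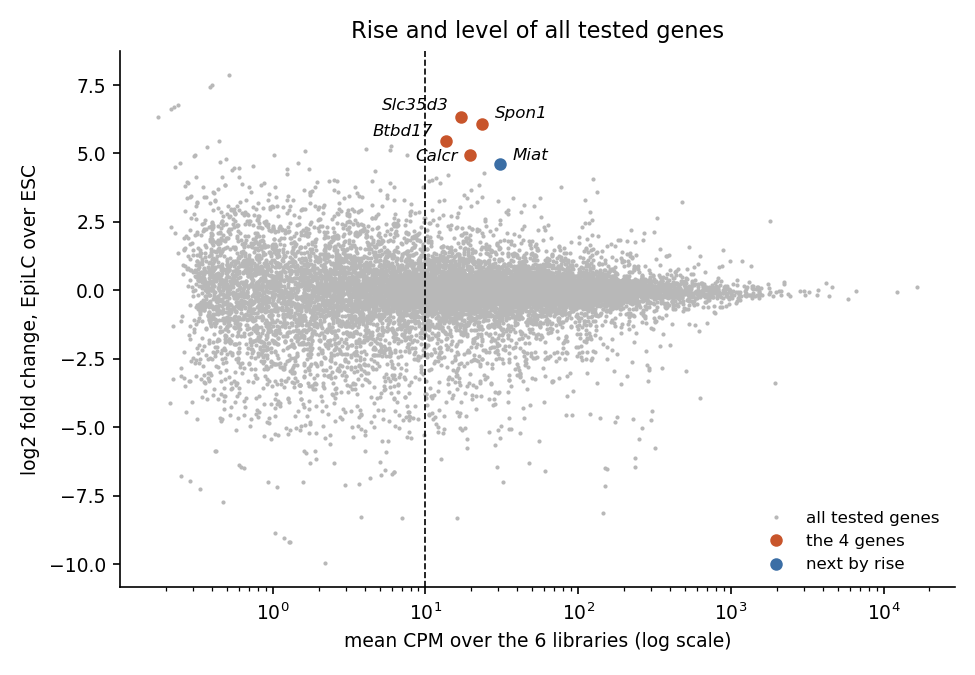
Log2 fold change from ESC to EpiLC against mean CPM over the 6 libraries (log axis) for the 14468 tested genes, with the 4 genes in orange, the next by rise in blue and the minimum of 10 CPM as a dashed line. Beyond that line, Slc35d3, Spon1, Btbd17 and Calcr have the 4 highest values, from 4.94 to 6.35, and Miat follows at 4.62.

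Markers that are commonly used for EpiLCs give a scale for these values, although the choice of the 4 genes as the largest rises fixes how they compare. Of 24 EpiLC and post-implantation epiblast markers, all tested, 20 (83.3%) were higher and 3 (12.5%) lower, against 22.6% and 22.8% of all tested genes, and their median log2 fold change was 1.43 against -0.00170 for all genes. The largest rises were those of Pou3f1 (4.07, adjusted p = 1.66e-05), the POU factor of the post-implantation epiblast, the zinc finger factor Sall2 (3.61) and the kinase gene Pim2 (3.22). Those lower included Cdh2 (-1.32), the gene for N-cadherin, and Etv5 (-0.32). Every one of the 24 had a mean of at least 5.02 TPM in ESCs, and the highest ESC mean of the 4 genes was the 0.723 TPM of Calcr. Pou3f1 went from 9.80 ± 1.49 to 172 ± 19.2 TPM (SD, n = 3 each).

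Genes with the most similar profile were found by the root mean square difference of centred log2 CPM over the 6 libraries, a measure set mainly by the step between groups. Slc35d3 and Spon1 were nearest to each other (0.45), and Btbd17 and Calcr lay 0.37 apart. After Spon1, Slc35d3 had Far2 (0.81), a fatty acyl-CoA reductase gene, and Stmn4 (0.85), a stathmin gene of neurons, as neighbours, and Spon1 had Far2 (0.66) and Aadat (0.73), an aminotransferase gene. For Btbd17 the nearest genes were Skida1 (0.34), Calcr and Aadat (0.40), and for Calcr they were Aadat (0.19), Far2 (0.29) and Miat (0.31). Within EpiLCs the genes did not share an order of replicates. Slc35d3 and Stmn4 were lowest in EpiLC replicate 3 (21.0 and 7.81 TPM), in which Spon1, Far2 and Aadat were highest (18.3, 8.27 and 16.9 TPM). The streak markers of that library are given above, and their part in this was not tested.

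Of 26 other SLC35 transporter genes 24 were tested, with 8 higher and 2 lower (33.3% and 8.33%, against 22.6% and 22.8% of all tested genes) and a median log2 fold change of 0.07. The count of higher genes ranged from 3 without EpiLC replicate 1 to 10 without ESC replicate 2, while 1 was lower without the latter. Slc35f1, an orphan transporter of the brain, rose from 0.533 ± 0.105 to 3.59 ± 0.410 TPM (SD, n = 3 each; log2 fold change 2.71, adjusted p = 2.07e-04). Slc35d1, of the same subfamily, which carries UDP-sugars into the endoplasmic reticulum for chondroitin sulfate synthesis, rose from 6.88 ± 1.20 to 12.3 ± 1.13 TPM (0.78, adjusted p = 0.00510). Slc35g2 fell from 2.60 ± 1.18 to 0.580 ± 0.170 TPM (-2.18, adjusted p = 0.00869). These calls held whichever library was left out. Slc35f2 (0.99) kept its call in 3 of 6 such fits, Slc35f3 (1.02) and the other D member, Slc35d2 (-0.71), in 1 of 6.

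Genes of platelet dense granules and related lysosome-like organelles, in which Slc35d3 acts, were called about as often as all genes. Of 26, 25 were tested, and 5 were higher and 5 lower (20% of each, against 22.6% and 22.8% of all tested genes) with a median of -0.15. The counts ranged from 3 of each without EpiLC replicate 1 to 6 and 7 without ESC replicate 2. Hps6, a subunit of the BLOC-2 trafficking complex, rose (0.88, adjusted p = 0.00458), as did Nbeal2, of platelet alpha granules (0.74), and Bloc1s2 (0.65). Slc17a9, the vesicular nucleotide transporter that loads ATP into dense granules, fell from 14.1 ± 1.74 to 4.38 ± 0.725 TPM (SD, n = 3 each; -1.74, adjusted p = 5.37e-04), and Lyst, mutated in Chediak-Higashi syndrome, fell by 1.23 on the log2 scale. Bloc1s3 was also lower (-0.60). Nbeal2 lost its call without EpiLC replicate 2, and Bloc1s3 lost it without EpiLC replicate 1 or 2.

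Of 45 other genes with the thrombospondin type 1 repeats that Spon1 holds, 39 were tested, with 9 higher and 17 lower (23.1% and 43.6%, against 22.6% and 22.8% of all tested genes) and a median of -0.57, and 28 had an EpiLC mean below 1 TPM. Rspo1, a secreted enhancer of WNT signalling, rose from 1.83 ± 0.449 to 13.4 ± 0.551 TPM (SD, n = 3 each; 2.79, adjusted p = 1.93e-04), and the metalloprotease genes Adamts19 (2.09) and Adamts15 (1.97) rose too. Falls were led by Adamtsl4 (-4.35), Thbs1 (-3.94) and Adamts12 (-3.74). In ESC replicates 1, 2 and 3, Thbs1, a product of fibroblasts and other stromal cells, had 172, 1022 and 65.4 TPM, and the family's summed level of 314, 1210 and 157 TPM followed the order of fibroblast markers in these libraries (443, 1739 and 185 TPM). The part of feeder RNA in these falls was not tested. Counts of higher genes ranged from 5 to 9 over fits with a library left out. Counts of lower genes were 16 without ESC replicate 2, 20 without ESC replicate 3 and 7 without EpiLC replicate 1, and Thbs1 and Adamts12 lost their calls when any EpiLC library was left out.

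Genes of the pathways in which binding partners of F-spondin act were called about as often as all genes. Of 19 genes of the amyloid precursor protein (APP) and apolipoprotein E receptor pathways, all tested, 4 were higher and 5 lower (21.1% and 26.3%, against 22.6% and 22.8% of all tested genes) with a median of -0.04. Lrp8, the apolipoprotein E receptor that F-spondin binds, gave ESC replicates 1, 2 and 3 levels of 7.09, 5.68 and 5.70 TPM, and EpiLC replicates levels of 19.0, 19.3 and 15.4 TPM (log2 fold change 1.48, adjusted p = 2.53e-04). Dab1, the adaptor that relays signals from this receptor, lay at 14.2, 13.5 and 11.4 and at 37.8, 37.4 and 38.5 TPM (1.79, adjusted p = 9.78e-05). Both were higher in every EpiLC library. Vldlr, the related receptor that shares Dab1, fell from 8.21, 5.32 and 5.92 to 2.84, 3.37 and 2.51 TPM (-1.21, adjusted p = 0.00262), and Reln, which encodes the ligand reelin, did not pass the test (1.95 ± 0.419 and 1.97 ± 0.101 TPM, SD, n = 3 each). Among the APP family, Aplp1 fell by 1.84 on the log2 scale, and App was lower (-1.46, adjusted p = 0.0414) but overlapped between groups, with 87.1, 188 and 43.0 TPM in ESCs and 40.4, 44.0 and 34.6 TPM in EpiLCs. Aplp2, the member of this family with the highest level, was higher (0.20, adjusted p = 0.0356), with 192, 185 and 204 TPM in ESCs and 228, 237 and 222 TPM in EpiLCs. In ESCs App followed the order of the fibroblast markers (443, 1739 and 185 TPM), whose part in its fall was not tested. The call of App was lost without ESC replicate 2, and the calls of App and Aplp2 each held in 1 of 6 fits with a library left out, whereas those of Lrp8, Dab1, Vldlr and Aplp1 held in 6 of 6. Apbb1, an APP-binding adaptor, was higher (0.66, lost without EpiLC replicate 1), and the protease gene Bace2 was lower (-3.12), at most 0.650 TPM. Without ESC replicate 3 the number of lower genes was 8, and without EpiLC replicate 1 there were 2 higher and 3 lower.

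Of 18 other genes of the BTBD family and its kin 17 were tested, and 5 were higher and 2 lower (29.4% and 11.8%, against 22.6% and 22.8% of all tested genes) with a median of 0.25, between 3 and 5 higher and between 1 and 3 lower over fits with a library left out. Rhobtb3, which acts in endosome to Golgi transport, rose from 13.7 ± 4.19 to 30.3 ± 1.73 TPM (SD, n = 3 each; 1.10, adjusted p = 0.00509), and Btbd6 and Btbd3, both studied in neurons, rose by 0.59 and 0.57 on the log2 scale. Lgals3bp, the secreted galectin-3-binding protein to which Btbd17 is related, went the other way, from 5.14, 7.48 and 4.12 TPM in ESC replicates 1, 2 and 3 to 0.880, 0.950 and 0.680 TPM in EpiLC replicates (-2.78, adjusted p = 5.73e-04). Abtb1 was lower (-0.45) and kept that call in 1 of 6 fits.

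Several genes of the calcitonin system were higher in EpiLCs. Of 10 genes for calcitonin family ligands, receptors and receptor partners, 7 were tested, and 4 were higher and 1 lower (57.1% and 14.3%, against 22.6% and 22.8% of all tested genes) with a median of 0.37. On the ligand side, Calca, which encodes calcitonin and the alpha form of calcitonin gene-related peptide, gave ESC replicates 1, 2 and 3 levels of 12.1, 11.1 and 19.1 TPM, and EpiLC replicates levels of 32.9, 28.2 and 38.9 TPM (log2 fold change 1.16, adjusted p = 0.0101). Gene counts do not separate these splice products. Iapp, the gene for amylin, was listed at 0 in all libraries, and Calcb reached at most 0.420 TPM. Adm, the gene for adrenomedullin, was lower (-1.10) and kept that call in 1 of 6 fits with a library left out.

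Receptor activity-modifying proteins bind the calcitonin receptor or its relative Calcrl at the membrane and set which ligand they prefer. Ramp2 lay at 3.07, 2.32 and 5.28 TPM in ESCs and at 14.0, 13.6 and 19.5 TPM in EpiLCs (2.06, adjusted p = 0.00349), and Ramp3 at 4.36, 5.92 and 8.10 and at 18.5, 17.6 and 16.4 TPM (1.45, adjusted p = 0.00356). For both, every EpiLC library exceeded every ESC library. Ramp1 was nearly absent, at most 0.0800 TPM. Calcrl, the receptor that pairs with these proteins for adrenomedullin and calcitonin gene-related peptide, had 1.03 ± 0.250 and 1.06 ± 0.127 TPM (SD, n = 3 each) and did not pass the test. Crcp, an accessory component of receptor signalling that also serves RNA polymerase III, was higher by 0.37 on the log2 scale. Calls of Calca, Ramp2 and Ramp3 held in 6 of 6 fits with a library left out, and between 3 and 4 genes of the list were higher in these fits.

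**Figure D3:**
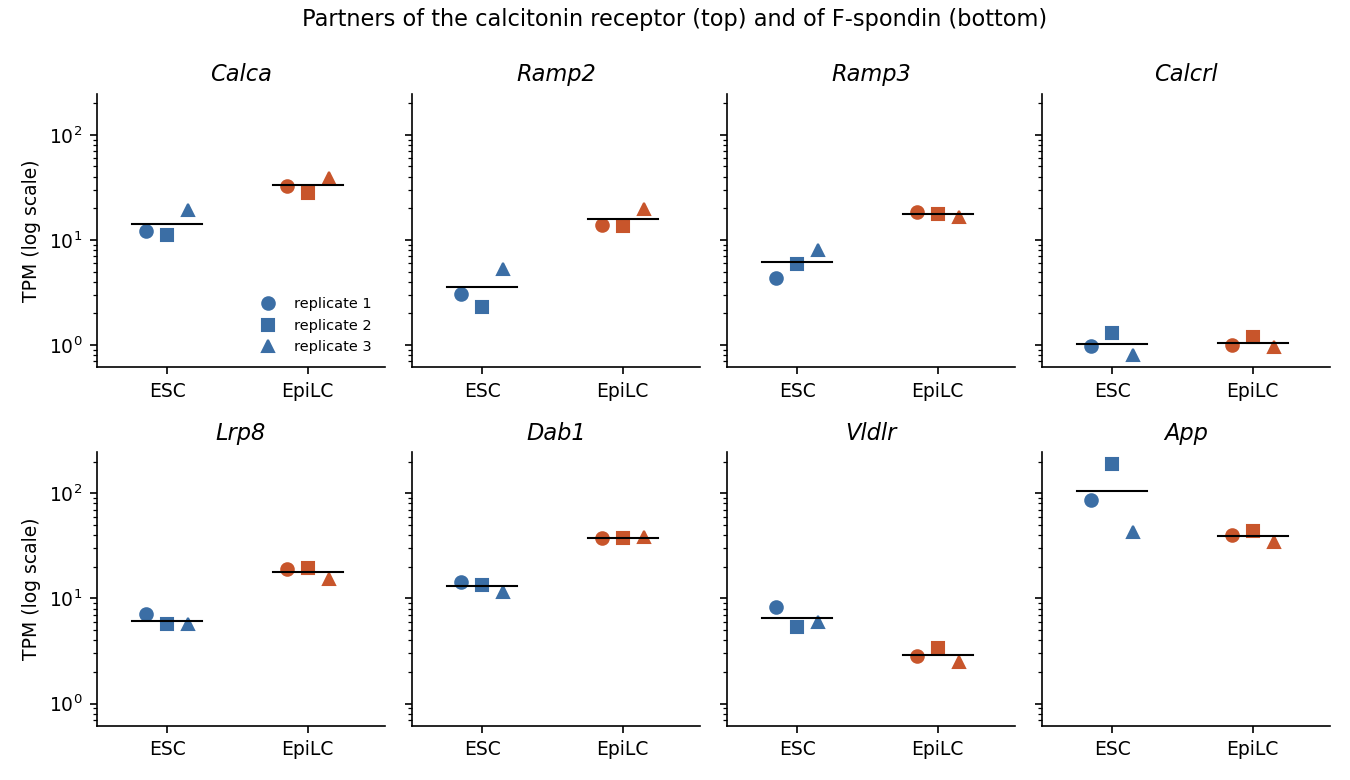
TPM (log axis) in each ESC and EpiLC library, with symbols for replicates and lines for group means. The top row holds 4 calcitonin system genes. The bottom row holds 4 genes of the pathways in which binding partners of F-spondin act. Calca, Ramp2, Ramp3, Lrp8 and Dab1 are higher in every EpiLC library than in any ESC library, Vldlr is lower, and Calcrl and App overlap.

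Other class B1 receptors were scarce. Of 13, 6 were tested and 9 had an EpiLC mean below 1 TPM. Vipr1 (1.71), Crhr2 (1.69) and Glp1r (1.33) were higher and Pth1r lower (-0.88), which is 50% and 16.7% against 22.6% and 22.8% of all tested genes, but none kept its call in more than 3 of 6 fits with a library left out, and there were 0 higher without EpiLC replicate 1 and 1 without ESC replicate 2. Genes of the cAMP pathway, through which Calcr signals by way of Gnas, were called about as often as all genes. Of 39 genes 37 were tested, with 9 higher and 10 lower (24.3% and 27.0%, against 22.6% and 22.8% of all tested genes) and a median of 0.06. Adcy7, an adenylyl cyclase, rose (1.81, adjusted p = 0.00257), and so did the phosphodiesterase genes Pde3b (1.53) and Pde8b (1.27), the latter in 3 of 6 fits. Rapgef4, a cAMP-activated exchange factor (-2.26), and Nr4a1 (-2.23) and Nr4a2 (-1.97), early targets of cAMP signals, were lower, Nr4a2 in 3 of 6 fits. Gnas itself had 423 ± 104 and 579 ± 76.2 TPM (SD, n = 3 each; adjusted p = 0.108). Lower genes numbered 5 without EpiLC replicate 2.

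**Figure D4:**
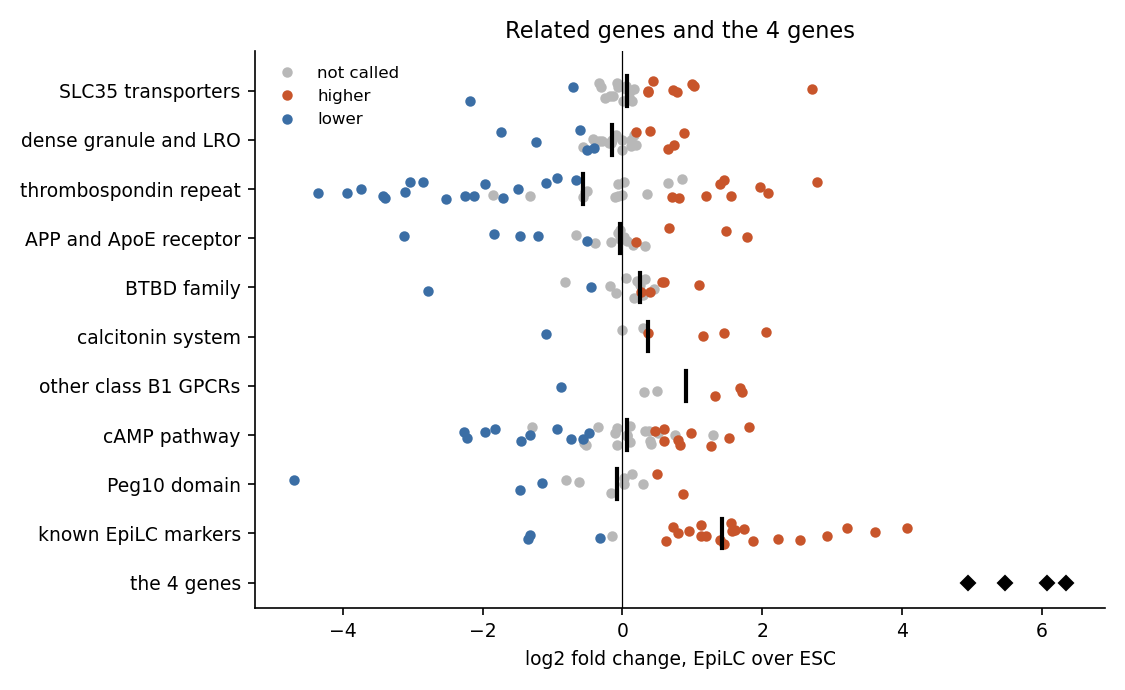
Log2 fold change of the tested genes of 10 lists related to the 4 genes, with genes called higher in orange, lower in blue and not called in grey, black bars for list medians and black diamonds for the 4 genes. The highest list gene is Pou3f1 at 4.07, and the 4 genes, chosen for their rise, lie from 4.94 to 6.35.

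Genes near the 4 genes were examined within 500 kb on either side, with distances taken between RefSeq gene spans. Of 57 such genes 31 were tested, and 11 (35.5%) were higher and 5 (16.1%) lower, against 22.6% and 22.8% of all tested genes. The largest rise among them was that of Il20ra, an interleukin receptor gene 87.9 kb downstream of Slc35d3, which went from 0.140, 0.0600 and 0.140 TPM in ESC replicates 1, 2 and 3 to 2.42, 3.11 and 1.89 TPM in EpiLC replicates (log2 fold change 4.25, adjusted p = 3.44e-04). On the other side of Slc35d3, Pex7, a peroxisome import receptor gene 3.46 kb away, rose by 0.77 and the stress kinase gene Map3k5, 77.5 kb away, by 2.26 on the log2 scale. These 3 neighbours and Slc35d3 alike were lowest of the EpiLC libraries in replicate 3. So were Ifngr1, Map7, Rpl32l and Mtfr2, which were not called higher, and among the tested neighbours only Bclaf1 was not. Mtfr2, farthest off among the tested genes, was lower (-0.33, in 1 of 6 fits with a library left out).

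Around Spon1, 4 of 7 tested genes were higher and 1 was lower. Pde3b, 372 kb downstream, rose by 1.53, whereas Rras2, 3.41 kb downstream, Btbd10 and Psma1 were higher by at most 0.38 on the log2 scale and Copb1 was lower (-0.20). The calls of Rras2, Btbd10 and Copb1 held in 1, 2 and 3 of 6 fits. Around Btbd17, 4 of 12 tested genes were higher and 2 were lower. Gprc5c, an orphan receptor gene 49.2 kb upstream, rose by 1.46 and Slc9a3r1, a scaffold protein gene 361 kb upstream, by 1.50. Kif19a (1.89) and Fads6 (1.42) were higher at low levels, in 5 and 2 of 6 fits with a library left out, and Nat9 and Ttyh2 fell by 0.81 and 0.79. The RefSeq span of Kif19a overlaps that of Btbd17, but the GENCODE spans do not, and Kif19a reached at most 0.410 TPM. Around Calcr, 0 of 4 tested genes were higher and Samd9l was lower (-1.16, in 2 of 6 fits).

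**Figure D5:**
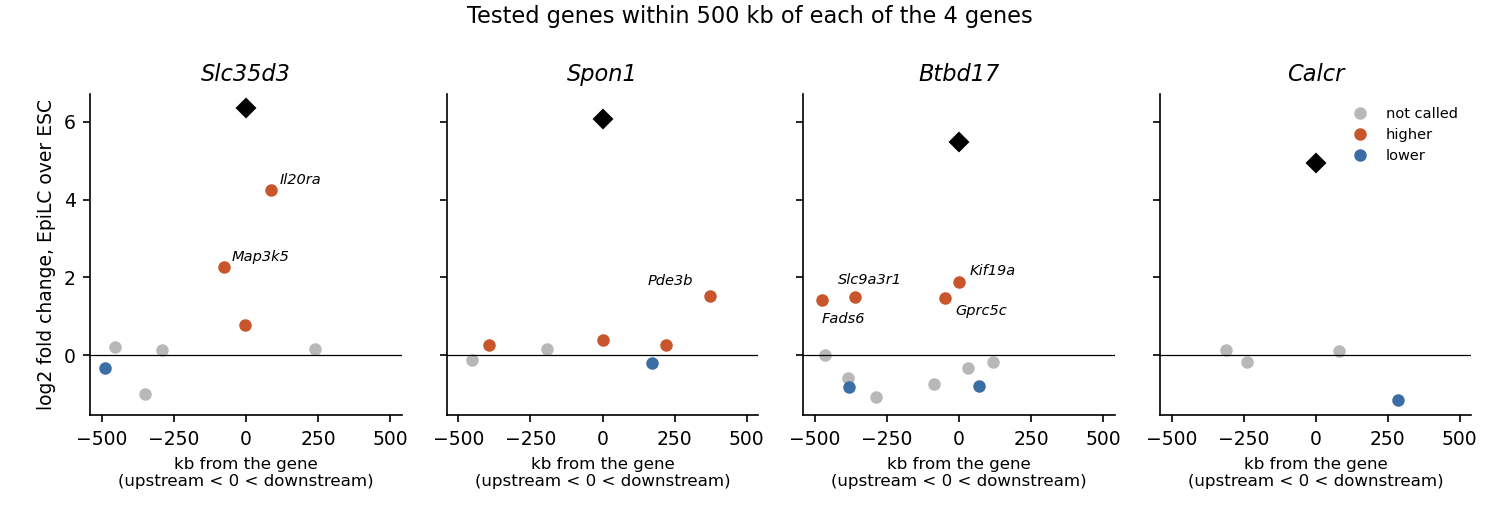
Log2 fold change of tested genes within 500 kb of Slc35d3, Spon1, Btbd17 and Calcr against distance in kb from the gene (negative upstream, positive downstream, 0 for overlap), with the gene itself as a black diamond and neighbours called higher, lower or not called in orange, blue and grey. Il20ra, near Slc35d3, is the highest neighbour at 4.25.

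Calcr lies beside the imprinted Peg10 domain, in which Peg10 and Sgce are expressed from the paternal copy. Of 16 genes of that domain and its flanks 12 were tested, with 2 higher and 3 lower (16.7% and 25%, against 22.6% and 22.8% of all tested genes) and a median of -0.07. Pon2 (0.87) and Casd1 (0.50) were higher, and Col1a2 (-4.70), Asb4 (-1.46) and Pdk4 (-1.15) were lower, of which Pon2 kept its call in 1 of 6 fits, Asb4 in 3, Col1a2, a fibroblast collagen gene, in 4 and Casd1 in 5. Peg10 itself had 331 ± 129 and 223 ± 29.3 TPM and Sgce 17.7 ± 4.57 and 18.5 ± 2.07 TPM (SD, n = 3 each), neither past the test. Without EpiLC replicate 1 none of the domain's genes was higher, and without ESC replicate 3 there were 5 lower.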

How the data were processed

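Poly(A) RNA of 3 ESC and 3 EpiLC libraries was sequenced as strand-specific single-end reads of 76 nt. The authors trimmed reads with cutadapt 1.16, aligned them with STAR 2.5.2a and counted them with RSEM 1.3.0 against mm10 RefSeq genes, and their notes also name DESeq2 1.16.1. They deposited expected counts per gene, which share out reads with several matches, and TPM, which the authors' RSEM run scaled for transcript length and library.

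Here, expected counts were rounded, scaled with TMM and tested with the quasi-likelihood test of edgeR 4.0.16 (R 4.3.3) on 14468 genes kept by filterByExpr, with Benjamini-Hochberg adjustment and a threshold of 0.05. Fold changes are EpiLC over ESC. Counting intervals are exact Poisson or binomial at 95%. The 3 counts that set a detection floor equal 0.0855 to 0.177 CPM. Patterns were compared on log2 CPM with a prior count of 2. Alternatives were DESeq2 1.42.0, upper-quartile scaling, no filter, 10 counts in every library, a replicate block, other minimum levels and leaving out each library. Differences between group means of log2(TPM + 1) and log2(TPM + 0.1) were also taken. Code was tested on simulated data.

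Members and lists were chosen with earlier results of these data known. Genes named from each list are the called genes with the 3 largest rises and falls, the neighbours are those called within 500 kb, and Slc35d1, Vldlr, Reln, Aplp2, Calcrl, Crcp, Ramp1, Iapp, Calcb, Gnas, Peg10 and Sgce were added after their values were seen. Gene spans, exons and codons are from GENCODE on GRCm38, promoters from RefSeq. Some genes that the naming rule picks are not reported here.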

Additional observations from a re-analysis of the deposited data

How the results depend on the processing

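Fold changes of Slc35d3, Spon1, Btbd17 and Calcr kept their direction under every alternative that could be fitted. Values differed from the main ones by at most the spread between replicates under DESeq2, upper-quartile scaling, no filter and log2(TPM + 0.1). On log2(TPM + 1), which compresses low values, they were 4.47, 3.82, 4.09 and 3.83. Slc35d3 and Spon1 could not be fitted with at least 10 counts in every library. Leaving out 1 library gave 6.02 to 6.66 for Slc35d3, 5.79 to 6.80 for Spon1, 5.24 to 5.65 for Btbd17 and 4.88 to 5.02 for Calcr, and 2144 to 3572 genes higher and 2100 to 3609 lower. Counts of higher and lower list genes then ranged from 3 to 10 and 1 to 2 (SLC35), 3 to 6 and 3 to 7 (dense granule), 5 to 9 and 7 to 20 (thrombospondin repeat), 2 to 4 and 3 to 8 (APP and apolipoprotein E receptor), 3 to 5 and 1 to 3 (BTBD), 3 to 4 and 0 to 1 (calcitonin), 0 to 3 and 0 to 1 (class B1), 7 to 11 and 5 to 11 (cAMP), 0 to 2 and 1 to 5 (Peg10 domain), and 17 to 20 and 3 to 3 (EpiLC markers). With at least 10 counts in every library, 5 thrombospondin repeat genes and 0 class B1 receptors were higher. Upper-quartile scaling and no filter each left 1 lower BTBD gene, and no filter left 0 lower calcitonin genes. By minimum level, Calcr ranked 8 (1 CPM) and 6 (5 CPM), Spon1 ranked 1 (20 CPM), and Btbd17 and Calcr ranked 2 and 3 (10 TPM, chosen after the data were seen). The cause of these shifts was not tested.

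Replicates share numbers in the labels. Deviations of same-numbered libraries from their group means correlated across genes at 0.01, 0.19 and 0.17 for numbers 1, 2 and 3. Differently numbered pairs gave -0.21 to 0.08, and ESC replicate 1 correlated best with EpiLC replicate 3 (0.08). The labels do not say whether same-numbered samples were paired, and these values do not decide it. With a replicate block the fold changes of Slc35d3, Spon1, Btbd17 and Calcr were 6.31, 6.15, 5.47 and 4.94, and 2979 genes were higher and 3106 lower. The block left 5 higher and 1 lower SLC35 genes, 3 higher and 1 lower BTBD genes, and 1 higher and 0 lower class B1 receptors.

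Depth limits the ESC values, which rest on 2 to 37 counts a library. Each group had 3 samples of 1 line, so the p-values measure the spread between these cultures.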
